A study of Mus musculus with 16 samples.

Results

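The 35 genes described here encode the folding enzymes, the secretion machinery and the stress sensors of the endoplasmic reticulum (ER). They were taken by symbol from the table of gene counts, where they filled 36 of 55487 rows, because Ddit3 stands for 2 annotated genes. The second Ddit3 row is a short gene inside the first, held 0 or 1 count in every library and was not tested, so 35 rows were tested. RNA came from the heart apex of male mice with (Ctrl) or without (KO) Cardinal, a long noncoding RNA gene of the heart annotated in mouse as Gm12295, and all hearts were collected 4 weeks after surgery. Mice had transverse aortic constriction (TAC), a ligature that makes the left ventricle pump against a higher pressure, or a sham operation. Each combination of genotype and operation held 4 mice, in groups called Ctrl sham, Ctrl TAC, KO sham and KO TAC. Age, strain, shared litters and any restriction of the knockout to a cell type are not given in the sources used here.

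Proteins that are secreted or placed in membranes enter the ER through the Sec61 channel, fold with the help of chaperones and disulfide isomerases, and leave in COPII-coated vesicles. When unfolded proteins build up, the sensors IRE1, PERK and ATF6 start the unfolded protein response, which slows translation and raises the transcription of chaperone genes, largely through ATF6 and XBP1. Collagen makes special demands on this system, since procollagen needs its own chaperone, prolyl hydroxylation and large transport carriers. In the heart, most collagen is made by fibroblasts.

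The libraries held between 53169437 and 79404714 counts, and log2 CPM (counts scaled per 1000000 of the TMM-adjusted library total) correlated at 0.979 to 0.990 between libraries of a group. Cardinal measured 3.25 to 3.86 CPM in Ctrl sham and 0.297 to 0.553 in KO sham, a difference with an exact permutation p of 0.0286, the smallest that 4 against 4 libraries can give (0.0571 after adjustment over 2 comparisons). In TAC hearts Ctrl libraries held 2.69 to 8.03 CPM. The first 3 KO TAC libraries held 0.276 to 0.371 CPM, but the library labelled KO TAC 4 held 4.55 CPM, which goes against its label. The exact permutation p between KO TAC and Ctrl TAC was 0.114. This library was kept under its label, and the calls that change without it, those of Ero1l and P4hb, are given without it too. Defining markers of heart muscle were present in every library: 8 cardiomyocyte genes together measured 35378 to 56630 CPM.

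In 8 of the 30 members with a promoter window in RefSeq (GRCm38.p6, 250 bases before to 50 after the start) the window holds the letters of the ER stress response element, or ERSE, CCAAT, any 9 bases, then CCACG, on either strand. That is 26.7% of these members, against 0.119% of 32851 promoter windows of the same length. The members were chosen as genes of the ER and its stress response, so a higher share was built into the choice and carries no test. The 9 sites are shown because these letters fall mostly on genes of chaperones, whose libraries are described further on. Capitals mark the fixed letters, and each site is read from CCAAT to CCACG with 5 flanking bases:
Hspa5, chr2:34772020-34772048, plus strand: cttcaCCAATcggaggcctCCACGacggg
Hsp90b1, chr10:86705633-86705661, minus strand: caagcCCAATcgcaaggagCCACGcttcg
Hsp90b1, chr10:86705528-86705556, plus strand: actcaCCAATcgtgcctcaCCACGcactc
Dnajc3, chr14:118937822-118937850, plus strand: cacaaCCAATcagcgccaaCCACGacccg
Creld2, chr15:88819515-88819543, minus strand: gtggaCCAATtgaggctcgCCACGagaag
Calr, chr8:84847070-84847098, plus strand: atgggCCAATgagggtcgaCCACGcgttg
Canx, chr11:50325795-50325823, minus strand: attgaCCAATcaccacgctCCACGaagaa
Pdia6, chr12:17266486-17266514, plus strand: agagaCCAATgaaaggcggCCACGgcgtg
Syvn1, chr19:6046527-6046555, plus strand: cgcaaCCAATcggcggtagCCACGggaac
These sites lie 26 to 212 bases before the annotated start. With CCAC in place of CCACG the letters are in 11 of 30 members (36.7%, against 0.365% of all windows), which adds Herpud1, Pdia3 and Pdia4. The shorter ERSE-II, ATTGG, any 1 base, then CCACG, is in Dnajb11 and Herpud1, and in 0.0365% of all windows. It is shown for Herpud1, the member with the largest fall after TAC:
Herpud1, chr8:94386372-94386392, plus strand: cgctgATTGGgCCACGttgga
The core of the XBP1 element (TGACGTG) is in Hspa5 and Sec24d, and in 2.01% of all windows. No window of a member holds the heat shock element letters GAA, TTC and GAA with any 2 bases between each, which are in 0.603% of all windows. Fkbp10, Creb3l1, Atf6, Hyou1 and Manf are named only. A match is a run of letters and was not tested for binding.

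After TAC the members did not move as 1 block. In Ctrl hearts 5 of 35 members passed the test, where 20% of 18275 tested genes did: 2 rose (Creb3l2 and P4hb) and 3 fell (Canx, Dnajb9 and Herpud1), beside 10.4% and 9.6% of all genes. In KO hearts 18 passed, where 34.3% of all genes did: 10 rose and 8 fell, beside 17.8% and 16.5% of all genes. The 4 TAC libraries did not overlap the 4 sham libraries, with TAC higher, for 1 member in Ctrl and 8 in KO (10.5% and 18% of all genes), and with TAC lower for 2 and 8 (9.97% and 16.6%). The 10 that passed the test and rose in KO were Creb3l2, Pdia5, Edem1, Sec61b, P4hb, Sec24d, Eif2ak3, Ero1l, Ssr1 and Fkbp9. The 8 that passed it and fell were Herpud1, Hspa5, Hyou1, Pdia6, Hsp90b1, Canx, Dnajb9 and Calr. The 8 with TAC lower and no overlap hold Xbp1 in place of Calr. The median log2 fold change over the members was 0.08 in Ctrl and -0.02 in KO, beside 0.00 over all genes in both. Estimates had the same sign in both genotypes for 23 of the 35 members: 14 above and 9 below 0. Another 10 were above 0 in Ctrl and below 0 in KO, and 2 the reverse. Each adjusted p of a member is from edgeR's quasi-likelihood test, with Benjamini-Hochberg adjustment over all genes. The Ctrl and KO comparisons use different mice. The KO count depended on the sham libraries described with Serpinh1: with their number series as a model term 8 members were called (26.4% of all genes). Creb3l1, Creb3l2, P4hb and Edem1 were higher, and Canx, Dnajb9 and Herpud1 lower. The count of 8 also holds Serpinh1, whose call carries no weight, because the term takes up the high sham values that drew attention to the series.

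**Figure D1:**
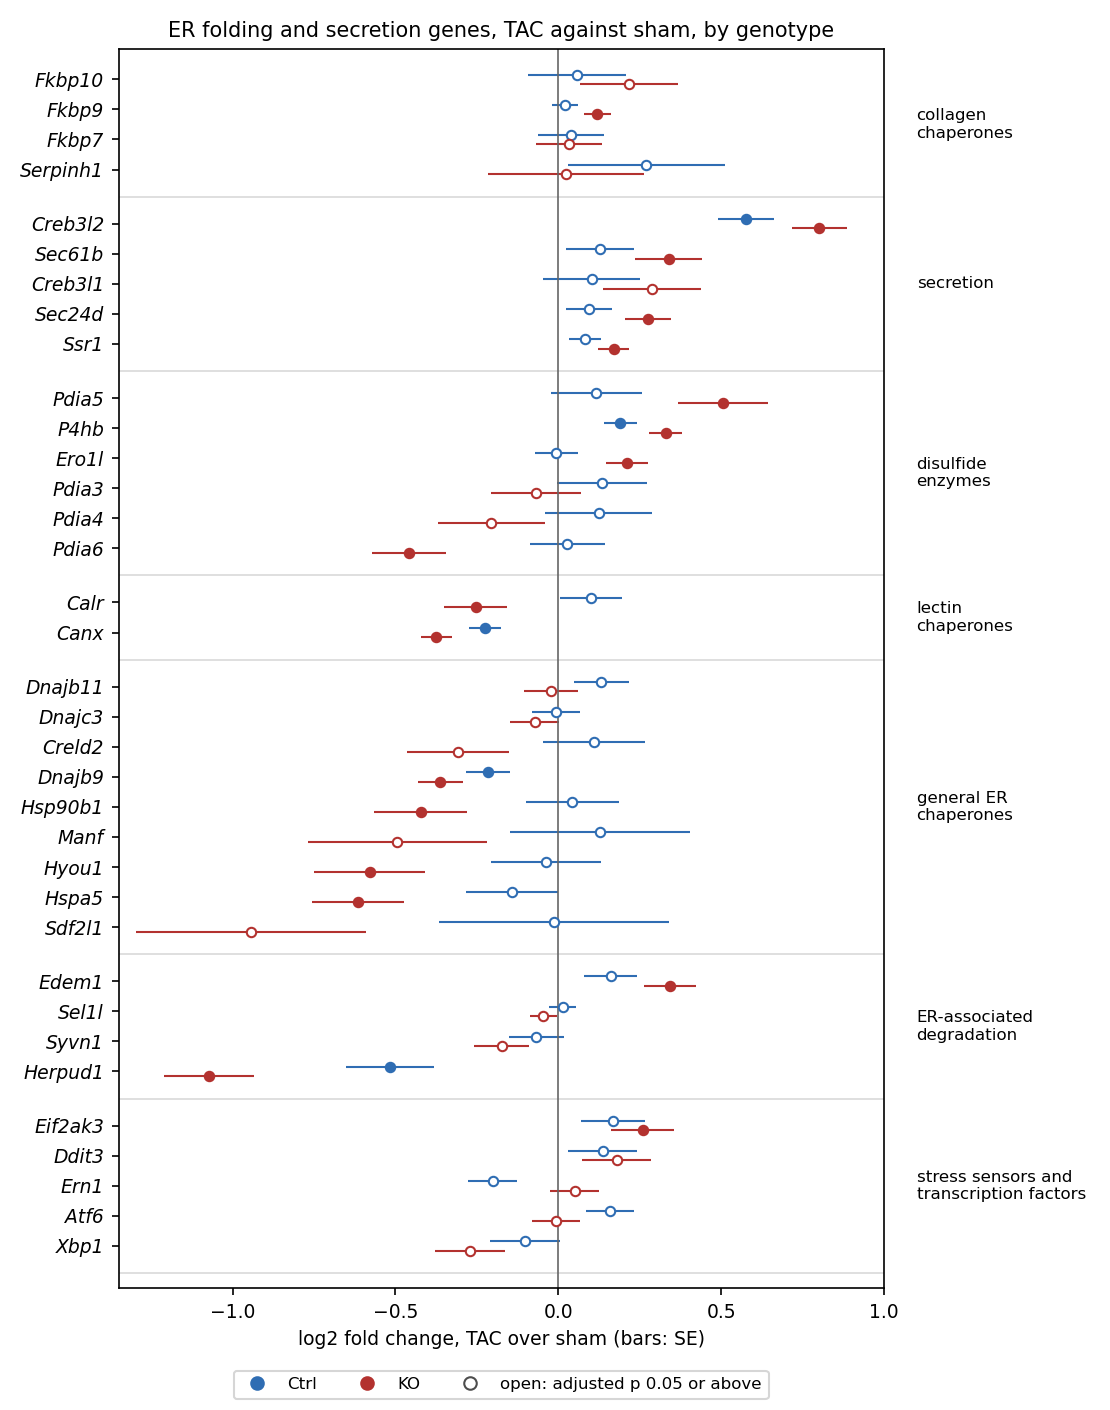
Log2 fold change of TAC over sham for each of the 35 tested members, with SE bars, in Ctrl (blue) and KO (red), grouped by role. Filled points have an adjusted p under 0.05. The 5 secretion genes are all above 0, the 9 general ER chaperones are all below 0 in KO, and Creb3l2 and Herpud1 are farthest from 0 among called members.

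Among the 5 secretion genes 1 rose in Ctrl (Creb3l2) and 4 rose in KO, where 10.4% and 17.8% of all genes did, and none fell. Creb3l2, a membrane-bound transcription factor that is cleaved in the Golgi and drives genes of COPII transport, measured 28.3, 33.5, 30.6 and 31.0 CPM in Ctrl sham and 40.2, 48.1, 42.2 and 53.4 CPM in Ctrl TAC. In KO it measured 30.5, 32.9, 32.4 and 30.2 CPM in sham and 51.2, 49.2, 61.5 and 57.7 CPM after TAC. No TAC library overlapped a sham library in either genotype. The log2 fold change was 0.58 ± 0.085 (SE) in Ctrl (adjusted p = 0.000106) and 0.80 ± 0.085 in KO (adjusted p = 1.24e-06), and both calls held in 27 of 27 alternative settings.

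Sec24d, the COPII cargo adaptor needed for procollagen export, lay at 33.9 to 38.8 CPM in KO sham and 42.5 to 47.6 CPM in KO TAC. The groups did not overlap, and Sec24d rose by 0.27 ± 0.070 (adjusted p = 0.00520). Sec61b, the beta subunit of the translocation channel, rose from 4.82 to 5.37 CPM to 6.14 to 6.69 CPM in KO (0.34 ± 0.103, adjusted p = 0.0161), a call lost without KO sham 4 (0.31, adjusted p = 0.0503). Ssr1, a subunit of the translocon-associated TRAP complex, rose from 46.1 to 48.7 CPM to 50.2 to 56.0 CPM (0.17 ± 0.049, adjusted p = 0.0109). With the number series 33 as a term none of these 3 genes was called in KO, while Creb3l1 and Creb3l2 were. In Ctrl hearts the same 3 genes had log2 fold changes of 0.09, 0.13 and 0.08, none of which passed the test. Creb3l1, the close relative of Creb3l2 that drives collagen genes in bone, was low at 2.00 to 4.29 CPM and had estimates of 0.10 ± 0.149 in Ctrl and 0.29 ± 0.150 in KO (adjusted p = 0.694 and 0.152).

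Among the 4 genes grouped here as collagen chaperones, TAC effects were small beside those of fibrillar collagen genes. Which proteins these chaperones fold was not measured. The 5 fibrillar collagen genes Col1a1, Col1a2, Col3a1, Col5a1 and Col5a2 all rose in both genotypes, by 1.12 to 1.68 on the log2 scale in Ctrl and by 1.39 to 2.23 in KO. The chaperones had estimates of 0.02 to 0.27 in Ctrl, none past the test, and of 0.02 to 0.22 in KO, where 1 passed it. Summed over the list, the collagen genes went from 226 to 342 CPM in Ctrl sham to 756 to 947 CPM in Ctrl TAC, and from 259 to 292 CPM in KO sham to 1050 to 1122 CPM in KO TAC. The chaperone sums were 244 to 382 CPM in Ctrl sham and 263 to 342 CPM in KO sham. They were 307 to 330.4 CPM in Ctrl TAC and 302 to 344 CPM in KO TAC. Sham and TAC sums overlapped only through Ctrl sham 4 and KO sham 1, 2 and 3, which held 316 to 382 CPM. The other 4 sham libraries held 244 to 263 CPM, below every TAC library. Serpinh1 measured 179 to 238 CPM in the former and 103 to 119 CPM in the latter. The TAC estimates of Serpinh1 depended on these libraries too, as described further on. For each 100 collagen counts there were thus 75.4 to 130.0 chaperone counts in Ctrl sham and 102 to 117 in KO sham, but 33.9 to 42.4 in Ctrl TAC and 28.1 to 31.3 in KO TAC. In the other 4 sham libraries alone the range was 75.4 to 112, still above every TAC library. These are ratios within a library and carry no test. RNA of fibroblasts and muscle cells was pooled, so more cells of a type and more RNA per cell cannot be told apart in any result here.

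**Figure D2:**
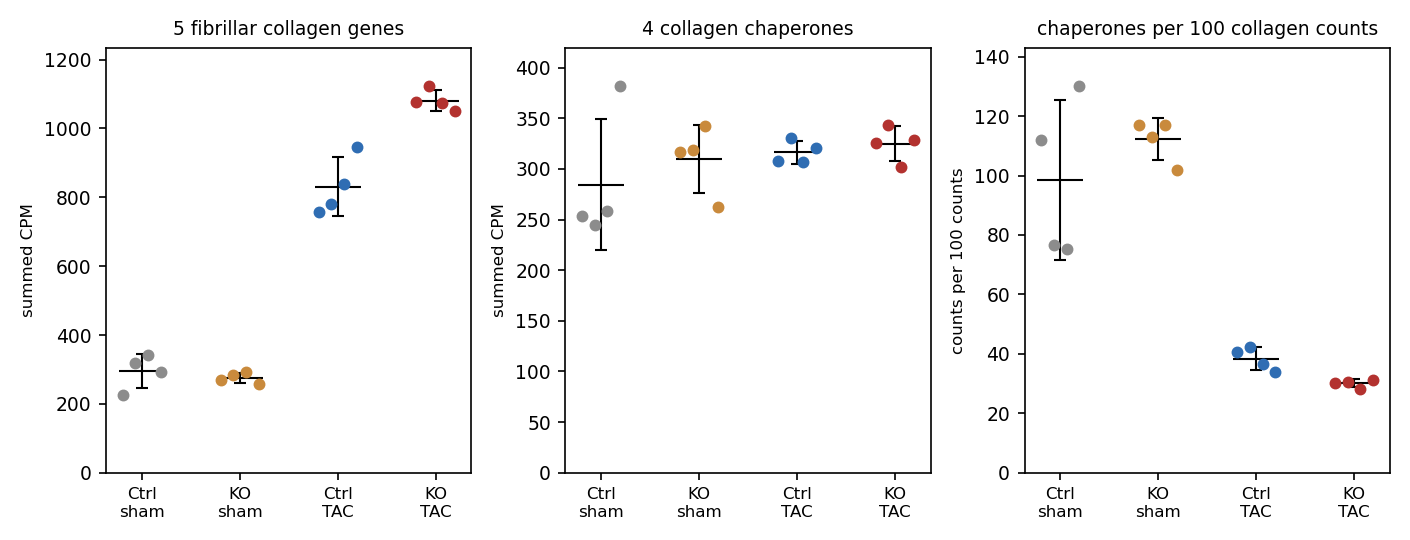
Summed CPM of 5 fibrillar collagen genes (left), summed CPM of the 4 collagen chaperones (middle), and chaperone counts per 100 collagen counts (right), 1 point per library with the group mean and SD. Collagen sums of TAC libraries lie above all sham libraries, and chaperone sums overlap between groups. Sham and TAC chaperone sums overlap only through Ctrl sham 4 and KO sham 1, 2 and 3. The ratio is at or below 42.4 in TAC and at or above 75.4 in sham.

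Fkbp9, a peptidyl-prolyl isomerase of the ER, was the gene of this class that passed the test. It measured 111, 114, 109 and 116 CPM in KO sham and 124, 123, 124 and 118 CPM in KO TAC, with no overlap and a difference of 0.12 ± 0.041 (adjusted p = 0.0293). The call was lost without any 1 of KO sham 1, KO sham 3, KO TAC 1, KO TAC 2 and KO TAC 3 (estimates from 0.11 to 0.12, adjusted p from 0.0538 to 0.0777). It was also lost with the number series 33 as a term. In Ctrl hearts it ranged from 109.8 to 119 CPM in sham and from 113 to 117 CPM after TAC. Fkbp7 and Fkbp10, isomerases of the same family, had estimates of 0.04 and 0.06 in Ctrl and 0.03 and 0.22 in KO, none past the test. Fkbp10, which acts on type I procollagen, has exons overlapping Nt5c3b on the other strand, and the sources used here do not say whether counting used strand. The same limit holds for Eif2ak3, Ddit3, Hsp90b1, Dnajb9, Manf, Pdia3, Pdia6 and Syvn1, whose exons also overlap a gene on the other strand. Exons of Hsp90b1 and Pdia4 overlap another annotated gene on the same strand.

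Serpinh1 encodes HSP47, the chaperone that binds the procollagen triple helix, and its sham libraries fell into separate levels. Ctrl sham libraries held 112, 103, 119 and 238 CPM, and KO sham libraries 180.0, 179, 209 and 115 CPM. TAC libraries held 159 to 187 CPM in Ctrl and 151 to 191 CPM in KO. All TAC libraries lay above the 4 low sham libraries, and their range overlapped that of the high ones. The TAC effect was 0.27 ± 0.241 in Ctrl and 0.02 ± 0.241 in KO (adjusted p = 0.492 and 0.956).

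The 4 high sham libraries, Ctrl sham 4 and KO sham 1, 2 and 3, are those whose animal numbers in the titles start with 33, a number series with no TAC animal and no stated meaning. With these numbers as a model term, the TAC estimates of Serpinh1 were 0.58 in Ctrl and 0.73 in KO. They are given with no test, because the term takes up the same high sham values that drew attention to the series. The cytosolic heat shock genes Hsph1 and Hspa8, picked after their values were seen, were also highest in these libraries: Hsph1 held 156 to 285 CPM in the 4 libraries, 33.3 to 49.7 CPM in the other 4 sham libraries and 46.1 to 103 CPM in TAC. Hspa1a held 346 CPM in Ctrl sham 4 but 10.1 CPM in KO sham 3. Other members separated the same sham libraries. In 13 of 35 members all 4 such libraries lay above the other 4 sham libraries (37.1%, against 3.76% of all tested genes), and in 1, Fkbp10, all lay below. The 13 were Serpinh1, Hspa5, Hsp90b1, Hyou1, Dnajb11, Sdf2l1, Manf, Calr, Pdia3, Pdia4, Pdia6, Edem1 and Syvn1. Serpinh1 drew attention to the series and is counted here, so this share is a description and carries no test. Since 3 of these libraries are KO sham and 1 is Ctrl sham, the number series and the genotype are partly confounded in sham hearts. Their part in the TAC effects was not tested beyond the values given with and without them.

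**Figure D3:**
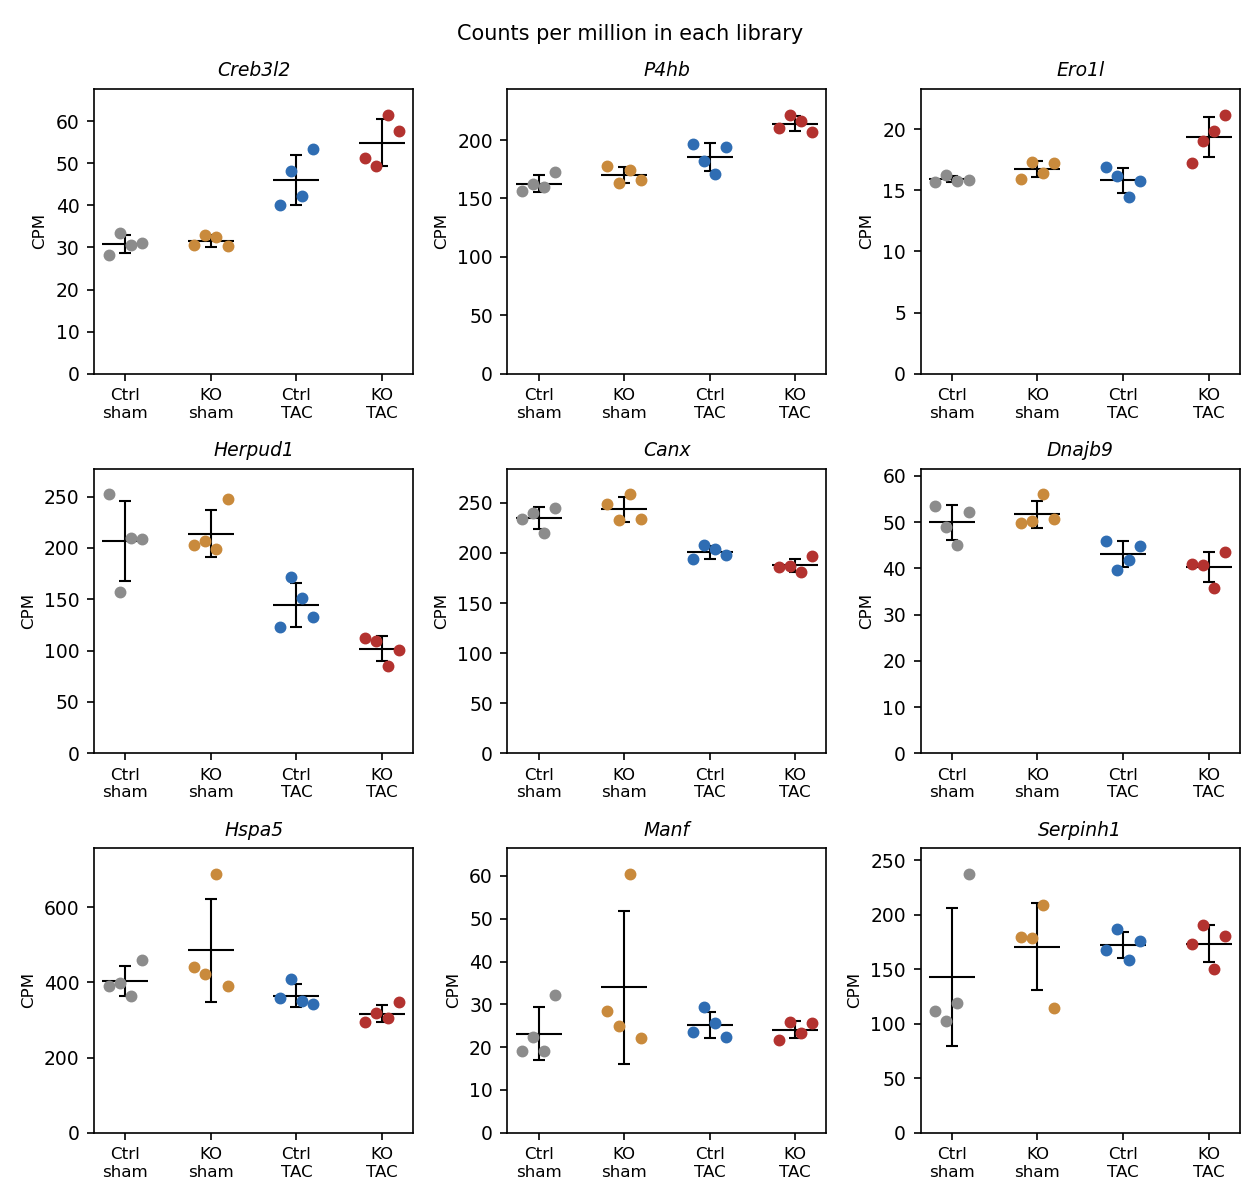
CPM of 9 members in each library, with the group mean and SD. Creb3l2 and P4hb are higher and Herpud1, Canx and Dnajb9 lower after TAC, Ero1l is higher in KO TAC, and Hspa5, Manf and Serpinh1 have sham libraries far above others of their group.

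The 6 disulfide enzymes split by direction. P4hb is protein disulfide isomerase, which is also the beta subunit of collagen prolyl 4-hydroxylase. It measured 157, 163, 159.5 and 172 CPM in Ctrl sham and 197, 182, 171 and 194 CPM in Ctrl TAC, where only Ctrl TAC 3 fell within the sham range. KO sham libraries held 178, 163, 174 and 166 CPM and KO TAC libraries 211, 222, 216 and 207 CPM, with no overlap. P4hb rose by 0.19 ± 0.051 in Ctrl (adjusted p = 0.0130) and by 0.33 ± 0.051 in KO (adjusted p = 7.25e-05).

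Pdia5, a low-abundance isomerase, rose in KO from 2.34 to 3.02 CPM to 3.61 to 4.04 CPM (0.50 ± 0.139, adjusted p = 0.00855). Ero1l, the oxidase that recharges disulfide isomerases, measured 15.9, 17.3, 16.5 and 17.2 CPM in KO sham and 17.3, 19.1, 19.9 and 21.2 CPM in KO TAC (0.21 ± 0.064, adjusted p = 0.0166). The call was lost without KO TAC 4 (0.16, adjusted p = 0.0685) or KO sham 1 (0.19, adjusted p = 0.0545). With the number series 33 as a term neither Pdia5 nor Ero1l was called in KO. In Ctrl, Pdia5 and Ero1l had estimates of 0.12 and -0.01. Pdia6, an isomerase that works with the chaperone BiP, went the other way in KO: it held 76.9, 72.3, 105 and 67.4 CPM in sham and 57.5, 59.8, 56.8 and 59.6 CPM after TAC, and fell by 0.46 ± 0.114 on the log2 scale (adjusted p = 0.00493), or by 0.31 without KO sham 3 (adjusted p = 0.00863). Its estimate in Ctrl was 0.03, and with the number series as a term its KO fall was not called. Pdia3 and Pdia4, isomerases for glycoproteins and other clients, had estimates of 0.13 and 0.12 in Ctrl and -0.07 and -0.21 in KO, none past the test. The KO estimate of Pdia3 was 0.16 without KO sham 3 (adjusted p = 0.0531) and 0.16 without Ctrl sham 4 and KO sham 3 (adjusted p = 0.0312).

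Both lectin chaperones hold glycoproteins in the ER until they fold. Canx, the membrane-bound calnexin, measured 234, 240.0, 220.4 and 245 CPM in Ctrl sham and 194, 208, 204 and 198 CPM in Ctrl TAC. In KO it measured 249, 233, 258 and 234 CPM in sham and 186, 187, 181 and 197 CPM after TAC. Neither genotype showed an overlap, and Canx fell by 0.23 ± 0.048 in Ctrl (adjusted p = 0.00280) and by 0.37 ± 0.049 in KO (adjusted p = 1.03e-05). Both calls held in all 27 alternatives. Calr, the soluble calreticulin, stood at 199, 205, 196 and 236 CPM in Ctrl sham and 211 to 238 CPM in Ctrl TAC. KO sham held 247, 225, 310.0 and 209.6 CPM and KO TAC 199 to 224 CPM. The KO groups overlapped, and the fall of 0.25 ± 0.095 was close to the threshold (adjusted p = 0.0483) and passed it in 8 of 27 alternatives. Without KO sham 3 the estimate was -0.13 (adjusted p = 0.204).

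Of the 9 general ER chaperones, none rose after TAC. In Ctrl 1 fell (Dnajb9), where 9.6% of all genes did, and the median estimate was -0.01. In KO 4 fell (Hspa5, Hyou1, Hsp90b1 and Dnajb9), where 16.5% of all genes did. All 4 had no overlap between TAC and sham (16.6% of all genes), and the median estimate of the 9 was -0.42. These sizes rested on KO sham 3: without it the median was -0.19, 2 of the 9 estimates were above 0 and 3 members fell. With the number series 33 as a term the median was -0.01 and 1 fell (Dnajb9). That term marks KO sham 1, KO sham 2 and KO sham 3 but no TAC library, so series and operation are partly confounded in KO and the fit cannot fully separate them. Hspa5, which encodes BiP, the central Hsp70 of the ER, measured 389.6, 398, 365 and 460.0 CPM in Ctrl sham and 357, 409, 350.1 and 344 CPM in Ctrl TAC. KO sham held 442, 422, 689 and 389 CPM and KO TAC 295, 319, 305 and 348 CPM. Every KO TAC library was below every sham library of either genotype, while KO sham 3 stood far above the rest. Hspa5 fell by 0.62 ± 0.142 in KO (adjusted p = 0.00329), and its estimate in Ctrl was -0.14 ± 0.141 (adjusted p = 0.536). Without Ctrl sham 4 and KO sham 3 it fell by 0.40 in KO (adjusted p = 0.000429), and without the 4 sham animals numbered 33, which leaves 1 KO sham library that is assumed to vary like the others, the estimate was -0.30 (adjusted p = 0.0701).

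Hyou1, an Hsp110-type partner of BiP, fell by 0.58 ± 0.170 in KO (adjusted p = 0.0160), from 32.0 to 59.7 CPM to 26.0 to 28.6 CPM. Without KO sham 3 it fell by 0.33 (adjusted p = 0.0202), and with the number series as a term the estimate was -0.25 (adjusted p = 0.360). Hsp90b1, which encodes GRP94, fell by 0.42 ± 0.143 (adjusted p = 0.0322). Its KO sham libraries held 305, 285, 479.9 and 262 CPM and its KO TAC libraries 239.8, 254, 239 and 261 CPM, so that the lowest sham library was barely above the highest TAC library. Without KO sham 3 the estimate was -0.19 (adjusted p = 0.0517), and with the number series as a term it was -0.15 (adjusted p = 0.548). The call was also lost without any 1 of KO TAC 1, KO TAC 2 and KO TAC 3 (estimates from -0.43 to -0.40). Dnajb9, a BiP cochaperone that also restrains IRE1, fell in Ctrl from 45.1 to 53.6 CPM to 39.6 to 46.0 CPM (0.22 ± 0.069 lower on the log2 scale, adjusted p = 0.0330). In KO it fell from 49.9 to 56.0 CPM to 35.7 to 43.5 CPM, by 0.36 ± 0.069 (adjusted p = 0.000471). The Ctrl call of Dnajb9 held in 14 of 27 alternatives and the KO call in 26. The Ctrl call was lost without any 1 of Ctrl sham 1, Ctrl sham 2, Ctrl sham 4, Ctrl TAC 2 and Ctrl TAC 3 (estimates from -0.22 to -0.18).

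Sdf2l1, a BiP cochaperone, and Manf, a secreted ER stress protein, had the widest spread. Sdf2l1 held 5.88, 4.67, 11.5 and 3.01 CPM in KO sham and 2.60 to 3.89 CPM in KO TAC, and its estimate was -0.94 ± 0.353 in KO (adjusted p = 0.0523). The estimate turned to 0.11 without the sham animals numbered 33, a fit that leaves only KO sham 4, the lowest KO sham library for Sdf2l1. Manf held 28.5, 25.0, 60.5 and 22.1 CPM in KO sham and 21.6 to 25.9 CPM in KO TAC (-0.50 ± 0.275, adjusted p = 0.191). Its exons overlap those of Rbm15b, so its counts are less certain. Creld2, a disulfide enzyme of the stress response, and the cochaperones Dnajb11 and Dnajc3 had KO estimates of -0.31, -0.02 and -0.07, none past the test. In Ctrl the estimates of these 5 genes ran from -0.01 to 0.13.

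KO sham 3 was the library in which the chaperones stood out most. It was the highest of all 16 libraries in 16 of 35 members, where it was the highest in 7.06% of all tested genes. Relative to the mean of the other 3 KO sham libraries, it held 2.55 times as much Sdf2l1, 2.4 times Manf, 1.76 times Pdia4, 1.75 times Hyou1, 1.7 times Pdia3, 1.69 times Hsp90b1 and 1.65 times Hspa5. Xbp1 was at 65.0 CPM against 44.6 to 45.8 CPM. The genes of secretion and export did not follow: Creb3l2, Sec24d, Ssr1 and Sec61b were at 1.04, 1.04, 1.04 and 1.06 times the mean of the others, Ero1l at 0.979 times and Herpud1 at 0.909 times. All 8 members with ERSE letters in the promoter window were highest in this library, with a median log2 ratio of 0.49. So were 6 of the 22 members whose window lacks them (median 0.08) and 2 of 5 with no window. The 6 include Pdia3 and Pdia4, which hold the letters with CCAC, and Dnajb11, which holds ERSE-II. KO sham 3 is itself a sham library of the KO comparison, so its high values enter the KO falls too. The KO counts that follow are thus no separate observation. Among those 8 members, 5 fell after TAC in KO and 1 in Ctrl, and none rose. Among the 22 others, 10 rose and 2 fell in KO, and 2 rose and 2 fell in Ctrl. Of all tested genes 17.8% rose and 16.5% fell in KO, and with the number series 33 as a term Canx was the only one of the 5 falls still called. Ctrl sham 4 was above the other Ctrl sham libraries in 22 of 35 members (62.9%, against 26.9% of all tested genes), with log2 ratios of 0.95 for Sdf2l1, 0.66 for Manf and 0.26 for Hspa5.

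**Figure D4:**
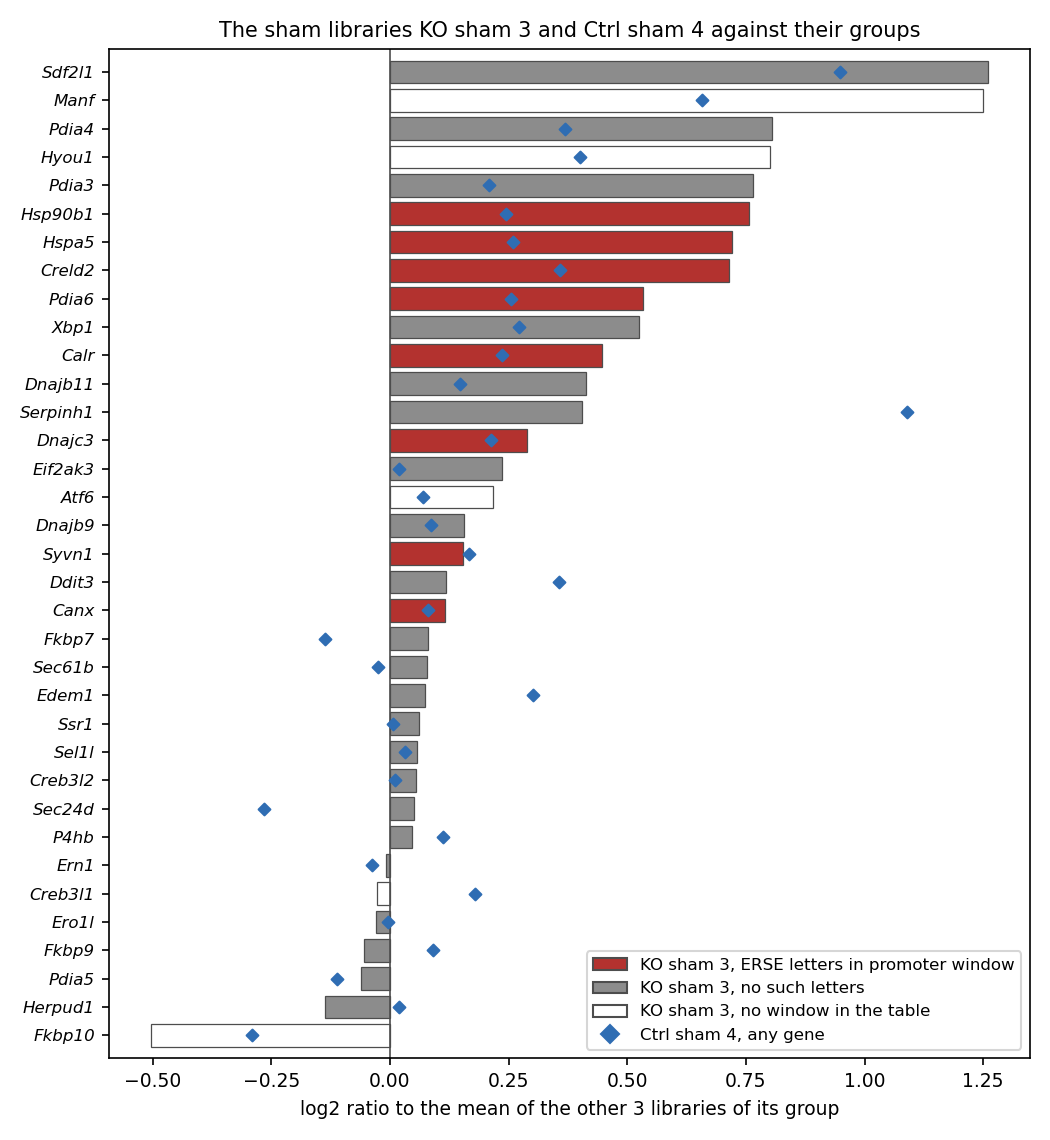
Log2 ratio of KO sham 3 (bars) and Ctrl sham 4 (diamonds) to the mean CPM, with 0.5 added, of the other 3 libraries of the same group, for each member. Bars are red where the promoter window holds ERSE letters, gray where it does not and white where the table has no window. Sdf2l1, Manf, Pdia4 and Hyou1 have the longest bars, and the secretion genes lie near 0.

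Genes of ER-associated degradation, which returns misfolded proteins to the cytosol for the proteasome, split. Herpud1, a membrane protein of the retrotranslocation complex, measured 252, 157, 209.6 and 209 CPM in Ctrl sham and 123, 171, 151 and 133 CPM in Ctrl TAC. It measured 203, 206, 199 and 247 CPM in KO sham and 113, 109, 85.1 and 100.1 CPM in KO TAC. Ctrl TAC 2 overlapped Ctrl sham 2, while KO TAC libraries lay below every library of the 3 other groups. Herpud1 fell by 0.52 ± 0.136 in Ctrl (adjusted p = 0.0138) and by 1.07 ± 0.137 in KO (adjusted p = 2.25e-05), the latter in 27 of 27 alternatives. The Ctrl call was lost without Ctrl sham 1 (-0.41, adjusted p = 0.0504). KO sham 3 was its lowest KO sham library. Without the sham animals numbered 33 the KO estimate was -1.29. That fit leaves only KO sham 4 in its group, the highest KO sham library for Herpud1.

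Edem1, a mannosidase-like lectin that marks glycoproteins for degradation, rose in KO from 12.4, 12.2, 12.9 and 12.1 CPM to 16.1, 16.7, 15.3 and 14.8 CPM. The rise was 0.34 ± 0.081 (adjusted p = 0.00285) and held in 27 of 27 alternatives. The Ctrl estimate was 0.16 ± 0.081 (adjusted p = 0.184). Sel1l and Syvn1, the scaffold and the ubiquitin ligase of the HRD1 complex, had estimates of 0.01 and -0.07 in Ctrl and -0.05 and -0.17 in KO, none past the test. Sel1l varied least of these, between 67.0 and 76.3 CPM over all 16 libraries.

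Of the 5 stress sensors and their transcription factors, none passed the test in Ctrl and 1 did in KO, where 20% and 34.3% of all genes did. Eif2ak3, which encodes the sensor kinase PERK, measured 6.72, 7.82, 9.35 and 9.05 CPM in KO sham and 8.78 to 10.7 CPM in KO TAC. The groups overlapped, and the rise of 0.26 ± 0.098 was just past the threshold (adjusted p = 0.0487), which it passed in 11 of 27 alternatives. Without KO sham 1 the estimate was 0.17 (adjusted p = 0.174). Ern1, which encodes IRE1, was lower in every Ctrl TAC library (13.4 to 14.7 CPM) than in every Ctrl sham library (14.8 to 17.9 CPM), a difference that did not pass the test (-0.20 ± 0.075, adjusted p = 0.0692). In KO the Ern1 estimate was 0.05.

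Xbp1, the transcription factor spliced by IRE1, held 45.8, 44.7, 65.0 and 44.6 CPM in KO sham and 41.6, 43.5, 37.6 and 43.2 CPM in KO TAC (-0.27 ± 0.107, adjusted p = 0.0608). The KO groups did not overlap, with every TAC library lower, but the difference did not pass the test. Gene counts do not separate spliced from unspliced Xbp1. Atf6, the sensor released to the Golgi, was at 98.4 to 138 CPM throughout, with estimates of 0.16 in Ctrl and -0.01 in KO. Ddit3, which encodes CHOP, the factor linked to cell death in prolonged stress, had estimates of 0.14 ± 0.106 in Ctrl and 0.18 ± 0.105 in KO (adjusted p = 0.411 and 0.208). Its 95% intervals reached from -0.09 to 0.37 and from -0.05 to 0.41.

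Collagen chaperones and secretion genes were also set beside the sensors within each library. The difference between the mean log2 CPM of those 9 genes and that of the 5 sensor genes was -0.041 ± 0.051 (SD, n = 4) in Ctrl sham, -0.079 ± 0.11 in KO sham, 0.080 ± 0.039 in Ctrl TAC and 0.128 ± 0.038 in KO TAC. KO TAC libraries ranged from 0.091 to 0.18 and KO sham libraries from -0.226 (KO sham 3) to 0.023. Ctrl TAC libraries ranged from 0.0303 to 0.122 and Ctrl sham libraries from -0.0886 to 0.0306, so the Ctrl groups overlapped. Creb3l2, a transcription factor with the largest rise among the members, was counted with the secretion genes. The comparison is a description with no test. The median TAC estimate was 0.10 in Ctrl and 0.29 in KO for the secretion genes, 0.05 and 0.08 for the collagen chaperones and 0.14 and 0.05 for the sensors.

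Between genotypes under load, 2 of 35 members passed the test, where 2.68% of all genes did. Both were higher in KO TAC than in Ctrl TAC, as were 1.36% of all genes, and 1.32% were lower. Ero1l measured 16.9, 16.2, 14.5 and 15.8 CPM in Ctrl TAC, all below the 17.3 to 21.2 CPM of KO TAC, a difference of 0.29 ± 0.064 (adjusted p = 0.0244). P4hb differed by 0.20 ± 0.051 (adjusted p = 0.0419), with no overlap. Groups did not overlap for 3 members with KO higher (Ero1l, P4hb and Fkbp9) and 2 with KO lower (Herpud1 and Pdia6), where 5.55% and 4.99% of all genes did so. Herpud1 missed the threshold with an estimate of -0.51 ± 0.136 (adjusted p = 0.0586). Both calls were lost without the library labelled KO TAC 4, where the estimates were 0.24 for Ero1l (adjusted p = 0.0612) and 0.22 for P4hb (adjusted p = 0.05 as rounded, not under it). Both were likewise lost without any 1 of Ctrl TAC 2, Ctrl TAC 3, KO TAC 2 and KO TAC 3, and over all 27 alternatives the call of Ero1l held in 17 and that of P4hb in 12. P4hb was lost without any 1 of Ctrl sham 3, KO sham 1, KO sham 2, KO sham 4 and KO TAC 1 as well, with estimates from 0.20 to 0.21. In TAC hearts the animal numbers and the genotype are partly confounded, since 3 of 4 Ctrl TAC numbers start with 2 and 3 of 4 KO TAC numbers start with 3. With that first digit as a term 0.0657% of all genes were called, and the estimates were 0.30 for Ero1l (adjusted p = 0.106) and 0.16 for P4hb (adjusted p = 0.238).

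In sham hearts no member differed between genotypes by edgeR, where 0% of all genes were called, and none did by DESeq2. At an unadjusted p under 0.05 there were 3 members (Ern1, Calr and Pdia6), and 2.62% of all genes. The estimates of all 9 general ER chaperones were above 0, from 0.05 for Dnajb9 to 0.56 for Manf, each with KO sham 3 as the highest library. The interaction of genotype and surgery called no member by either tool and 0.0109% of all genes by edgeR. At an unadjusted p under 0.05 there were 9 members, beside 11.1% of all genes. The larger TAC effects of KO hearts given above are therefore not shown to differ from those of Ctrl hearts. The widest interaction estimates among these 9 were those of Herpud1 (-0.56 ± 0.192, adjusted p = 0.312) and Hyou1 (-0.54 ± 0.239, adjusted p = 0.420).

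Levels per kilobase of exon in Ctrl sham placed Hspa5 first at 95.3 ± 9.55 CPM per kb (SD, n = 4), then Herpud1 at 88.6 ± 16.8, Calr at 72.6 ± 6.37, Hsp90b1 at 67.1 ± 6.10, Serpinh1 at 58.5 ± 26.0, P4hb at 56.9 ± 2.40 and Canx at 50.04 ± 2.26. Hspa5 and Herpud1 lay within their spread, as did Calr and Hsp90b1, and Serpinh1 and P4hb. The sensors were lower, from Xbp1 at 13.7 ± 1.57 to Eif2ak3 at 1.32 ± 0.109, and Pdia5 was last at 1.07 ± 0.0871.

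A wider list of the same pathway, of which 120 genes were tested, moved in both directions too: 25 rose and 7 fell in Ctrl, where 10.4% and 9.6% of all genes did, and 32 rose and 18 fell in KO, where 17.8% and 16.5% did. None of the wider genes is a member. Collagen folding and hydroxylation had the largest share of called genes among its classes, with 6 of 15 genes higher and 1 lower in Ctrl and 8 higher and 1 lower in KO. The largest rises in Ctrl were those of Kdelr3 (1.08 ± 0.18), P3h2 (0.71 ± 0.13), Qsox1 (0.63 ± 0.075), Ppic (0.57 ± 0.11) and P3h3 (0.55 ± 0.069). In KO they were those of P4ha3 (3.64 ± 0.87), Kdelr3 (1.25 ± 0.17), Casp12 (1.19 ± 0.13), P3h2 (1.17 ± 0.13) and Ppic (0.99 ± 0.11). P4ha3, an alpha subunit that pairs with P4hb, went from a mean of 0.0366 CPM in sham to 0.494 CPM. Kdelr3 is a receptor that returns ER proteins from the Golgi, Qsox1 a sulfhydryl oxidase, Ppic an isomerase and Casp12 an ER-linked caspase. P3h2 and P3h3 are named as collagen prolyl 3-hydroxylases. The largest falls in Ctrl were those of P3h4 (-0.59), Mia2 (-0.36), Sil1 (-0.32), Sec61a2 (-0.26) and Cdnf (-0.20), and in KO those of P3h4 (-0.95), Chac1 (-0.63), Sec61a2 (-0.41), Mia2 (-0.39) and Rnf5 (-0.36). P3h4 belongs to the collagen lysyl hydroxylase complex, Mia2 to ER export and Sec61a2 to the channel. Between genotypes under load 4 genes were higher in KO (Spcs3, P3h3, Txndc5 and Casp12) and 1 lower (P3h4), where 1.36% and 1.32% of all genes were. None differed in sham or in the interaction. Named genes of the wider list whose exons overlap a gene on the other strand include Kdelr3, P3h2, Qsox1, Sil1, Sec61a2, Spcs3 and Txndc5, and their counts are less certain.

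Cell type markers moved with these groups. Of all tested genes 10.4% rose and 9.6% fell in Ctrl, and 17.8% rose and 16.5% fell in KO. Summed over 5 genes, activated fibroblast markers held 30.4 to 51.8 CPM in Ctrl sham, 36.9 to 42.2 CPM in KO sham, 178 to 349.7 CPM in Ctrl TAC and 525 to 668 CPM in KO TAC, and 4 of 5 and 5 of 5 rose. Summed over 8 genes, cardiomyocyte markers held 48986 to 56630 CPM in Ctrl sham, 49343 to 54676 CPM in KO sham, 41913 to 46236 CPM in Ctrl TAC and 35378 to 37867 CPM in KO TAC, and 5 of 8 and 6 of 8 fell, while 1 of 8 rose in Ctrl and none in KO. Macrophage markers rose for 4 of 8 genes in Ctrl and 7 of 8 in KO, from 149 to 198 CPM in sham to 209 to 279 CPM in TAC. Fibroblast markers, 6 genes, held 449 to 468 CPM in Ctrl sham, 441 to 475 CPM in KO sham, 403 to 619 CPM in Ctrl TAC and 576 to 752 CPM in KO TAC, and 1 and 4 rose. Smooth muscle and pericyte markers, 7 genes, held 633 to 755 CPM in all libraries, and 2 and 3 rose. The part of these shifts in the members' changes was not tested. The markers of B cells and plasma cells, whose secretory load is high, summed to 4.35 to 15.1 CPM in all libraries. Of these 7 genes 1 fell in Ctrl, and 5 rose and 1 fell in KO. The endothelial markers summed to 494 to 662 CPM, with none called. Among all markers only the fibroblast gene Cthrc1 was at 0 in a library, and in 1 only.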

How the data were processed

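Poly(A)-selected RNA of the heart apex was sequenced as paired reads, 1 library per mouse, 16 in all. The authors deposited raw counts per Ensembl gene, in 1 column per mouse, with no normalization. The submitters' processing notes name cutadapt 2.3, FastQC, HISAT2 2.1.0, edgeR 3.26.1 and the build GRCm38. The counting program, the annotation, the use of strand and whether mates were counted once are not given in the sources used here. Every value column was matched to a mouse by its title and used. Replicates were numbered within a group in the order of the samples and pair nothing. No source says that mice were independent in litter or batch, so p-values measure the spread between these samples.

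Genes were named with GENCODE M21, which held 99.5% of the identifiers, and identifiers outside it carried 0.00355% of counts. Genes were filtered with filterByExpr (18275 kept) and scaled with TMM in edgeR 4.0.16 (R 4.3.3). One quasi-likelihood model (glmQLFit, robust) was fitted to all 16 libraries, 1 coefficient per group. With glmQLFTest, TAC was compared with sham in Ctrl and in KO, KO with Ctrl in sham and in TAC, and the interaction was tested. A gene was called at a Benjamini-Hochberg adjusted p under 0.05, taken over all genes, and the SE was the absolute log2 fold change over the square root of F. The procedure was tested on simulated data. Cardinal was compared with an exact two-sided permutation test over 70 relabellings of log2 CPM.

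The members and the lists were chosen with earlier results of these data known. All members are named, called or not. From the wider list the 5 largest called rises and falls after TAC in each genotype are named, with all genes called between genotypes, and other genes named were chosen after their values were seen. Promoter windows came from RefSeq (GRCm38.p6). The alternatives changed the scaling (RLE), the tool (DESeq2 1.42.0), the filter (all genes with a count, or a minimum of 10 counts in each library) or the threshold (adjusted p under 0.01). Others added the first digit of the animal number or the series 33 as a model term, used only the 8 libraries compared, left out each library in turn, or left out Ctrl TAC 2 with KO TAC 4. Leaving out Ctrl sham 4 with KO sham 3, and all sham animals numbered 33, was added after seeing the data.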

Additional observations from a re-analysis of the deposited data

Results flagged for a closer look

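In 15 of 140 sets of 4 libraries of a member (10.7%) the highest or lowest library stood apart from the other 3 by Dixon's criterion, where chance marks about 1 in 20 (5%), and 7 of the 15 were in KO sham 3. KO sham 3 was the highest KO sham library for Atf6 (134 CPM, counts scaled to library size), Xbp1 (65.0 CPM), Hyou1 (59.7 CPM), Dnajb9 (56.0 CPM), Manf (60.5 CPM), Creld2 (15.3 CPM) and Pdia3 (196 CPM). Ctrl sham 4 was the highest of Ctrl sham for Serpinh1 (238 CPM) and Pdia3 (127 CPM). KO sham 4 was the highest of KO sham for Herpud1 (247 CPM). Fkbp7 stood apart upward in Ctrl sham 1 (13.7 CPM) and in KO TAC 2 (13.3 CPM). Creb3l1 was highest in Ctrl TAC 1 (4.29 CPM). Fkbp9 was lowest in KO TAC 4 (118 CPM), the library whose Cardinal level went against its label. Ern1 was lowest in Ctrl TAC 3 (13.4 CPM).

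For 2 members the log2 CPM (with 0.5 added) of every TAC library lay above the mean of the sham log2 values in Ctrl and below it in KO. On linear CPM Pdia3 did so as well. The KO sham means were raised by KO sham 3, which held 310.0 CPM of Calr, 37.2 CPM of Pdia4 and 196 CPM of Pdia3. The other KO sham libraries held 209.6 to 247 CPM, 18.5 to 22.7 CPM and 111 to 119 CPM. KO TAC libraries, at 199 to 224 CPM of Calr and 20.8 to 23.7 CPM of Pdia4, overlapped those ranges. The interaction was -0.36 for Calr and -0.33 for Pdia4 on the log2 scale, and neither passed the test (adjusted p = 0.338 and 0.641 by edgeR).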

How the results depend on the processing

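Of 175 tests of a member in a comparison, 25 passed the threshold as reported, and 136 passed under no setting. The count for TAC in Ctrl, 5 as reported, was 2 at an adjusted p under 0.01 and 8 without Ctrl sham 4 and KO sham 3. For TAC in KO, 18 as reported, it was 10 at an adjusted p under 0.01, 8 with the number series 33 as a model term and 7 without the sham animals so numbered, a fit in which KO sham has 1 library. For KO against Ctrl in TAC, 2 as reported, it was 0 at an adjusted p under 0.01, with the first digit of the animal number as a term, with the 8 libraries of both groups, without Ctrl TAC 2 and KO TAC 4, and without the sham animals numbered 33, and it ranged from 0 to 3 when 1 library was left out. The counts of 0 in sham and in the interaction stayed 0 in each fit run. None of the 25 estimates that passed changed sign under an alternative, while 64 of the 150 that did not pass did. Of the 39 that passed under any setting, 4 changed sign, all for TAC in KO. That of Sdf2l1 became 0.018 with the term for 33 and 0.11 without those sham animals. That of Serpinh1 ranged from -0.13 (without KO sham 4) to 0.14 when 1 library was left out, and was -0.02 without KO TAC 2, and that of Fkbp10 became -0.12 with the term and -0.27 without those animals. That of Pdia3 was 0.16 with the term, ranged from -0.16 to 0.16 (without KO sham 3) when 1 library was left out, and was 0.16 without Ctrl sham 4 and KO sham 3, and 0.22 without those animals. Beyond what the omitted libraries show, the cause was not tested. No paired analysis was possible because the labels give the groups no shared replicate numbers. The 4 libraries a group limit the precision of every estimate.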
